A study of Homo sapiens with 13 samples.

Results

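Methotrexate (MTX) is an antifolate, and the 10 genes described here encode enzymes that make, interconvert or use the one-carbon forms of folate which the drug depletes. The members were TYMS, ATIC, GART, SHMT1, SHMT2, MTHFD1, MTHFD2, MTHFD1L, ALDH1L2 and MTR, out of 18568 genes with a probe set of their own. Each gene was read from the probe set annotated to that symbol alone, and where there were several, from the one with the highest mean over the arrays. The samples were 13 human acute lymphoblastic leukemia (ALL) lines grown for 30 h without treatment, each hybridized to 1 HG-U133 Plus 2.0 array (Affymetrix). The 7 T-cell lines (T-ALL) comprised Jurkat, Molt4, CCRF-CEM, HPB-ALL, ALL-SIL, P12-ICHIKAWA and TALL-1. The 6 B-cell precursor lines (BCP-ALL) were 697, Nalm6, REH, RS4,11, Nalm16 and Nalm30. A line is 1 established clone in culture, so the spread reported is that between lines, and the spread between cultures of a line is unknown.

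Folate carries single carbons at several oxidation states. SHMT1 in the cytosol and SHMT2 in mitochondria move a carbon from serine onto tetrahydrofolate. MTHFD2, MTHFD1L and ALDH1L2 oxidize or release it as formate or carbon dioxide in mitochondria, and MTHFD1 takes formate back up in the cytosol. TYMS spends the carbon on thymidylate, GART and ATIC spend it on the purine ring, and MTR spends it on remaking methionine from homocysteine. The polyglutamates of MTX inhibit dihydrofolate reductase, TYMS, GART and ATIC.

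Values are log2 of a signal to which 16 was added, so 4 is the lowest possible value, and differences between low values are understated. Levels are compared between lines and never between probe sets. The lineage labels fitted their markers. The mean of 9 measured T-cell genes was 8.72 to 10.07 in T-ALL and 4.68 to 5.25 in BCP-ALL, and the mean of 8 B-cell precursor genes was 4.65 to 5.98 in T-ALL and 10.11 to 10.66 in BCP-ALL. The means of the other marker lists were low in both, 5.19 to 5.64 in T-ALL and 5.39 to 6.93 in BCP-ALL for 5 myeloid genes, 5.44 to 6.05 and 5.53 to 6.38 for 2 erythroid genes, and 4.88 to 5.49 and 5.04 to 5.33 for 5 stromal or epithelial genes. The arrays of Nalm16 and Nalm30 stood apart. Over all probe sets they correlated with the other BCP-ALL arrays at r = 0.805 to 0.879, whereas those other 4 lines correlated with each other at 0.913 to 0.927, and with each other the pair reached 0.959. Of all 78 pairs, P12-ICHIKAWA and TALL-1 had the highest r (0.993). The 3′ minus 5′ signal of the actin control was 0.40 in Nalm16 and 0.54 in Nalm30, within the 0.09 to 0.57 of the other 11 lines, and that of the GAPDH control was 0.21 in Nalm16 and 0.10 in Nalm30, against -0.07 to 0.18.

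The folate enzymes differed in how far they varied over the lines. On the probe set used for each gene, TYMS, ATIC and SHMT2 spanned 1.78-fold, 1.67-fold and 1.82-fold. MTHFD1, MTHFD2 and GART spanned 2.55-fold, 2.69-fold and 3.0-fold, and MTR 6.86-fold. Of the 10 members, 8 passed the filter on low expression, which kept a gene if 3 or more lines gave it a value higher than their own array's median, as did 12560 genes in all. The spread of MTR over the 13 lines (SD 0.759) was larger than that of 69.9% of the genes kept. For the other 7 members that passed, the share of genes with a smaller SD ran from 5.72% for TYMS through 9.69% for ATIC, 16.1% for SHMT2, 31.3% for ALDH1L2, 32.3% for MTHFD2 and 33.4% for MTHFD1 to 36.9% for GART.

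**Figure D1:**
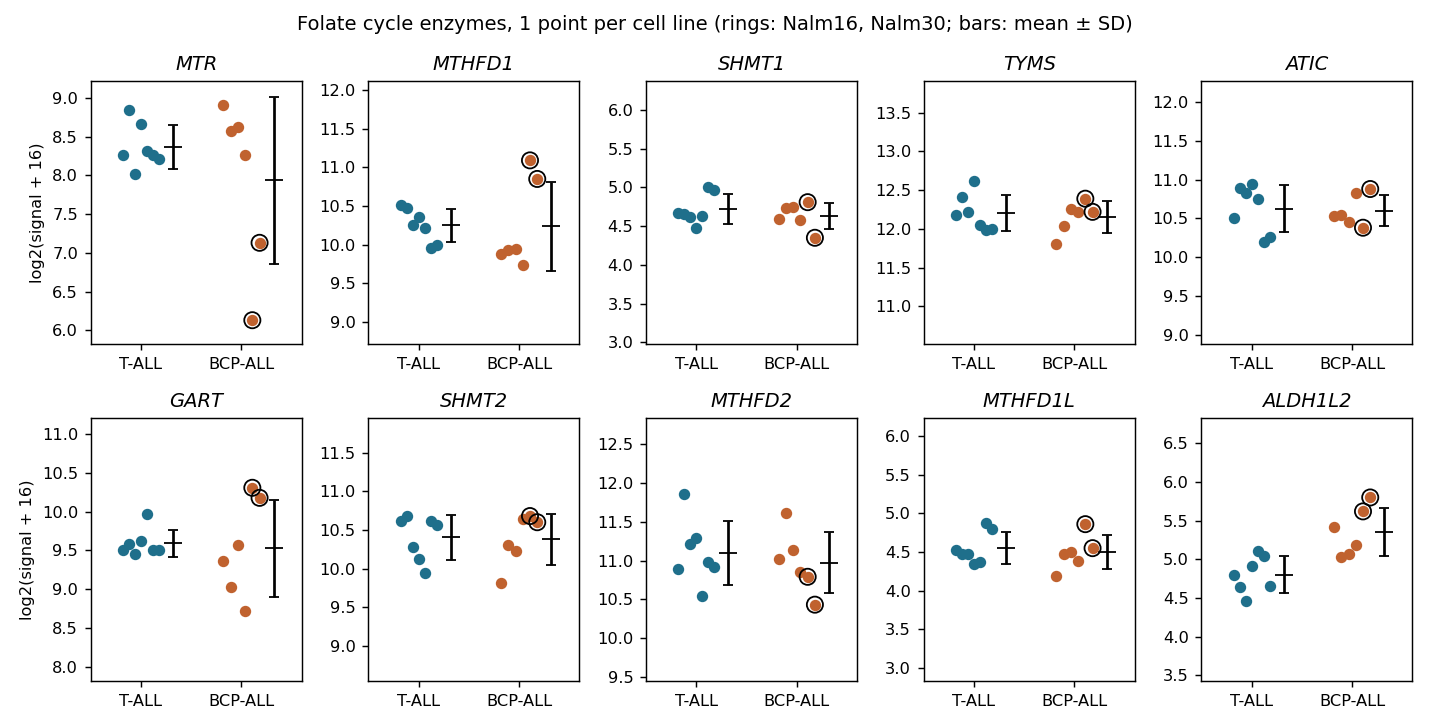
Level of each of the 10 enzymes, as log2(signal + 16), in T-ALL (left, 7 lines) and BCP-ALL (right, 6 lines). Each point is a line, the rings mark Nalm16 and Nalm30, the bars give the mean and SD, and every panel spans the same height. The ringed points are the lowest for MTR, at 6.13 and 7.13, and the highest for MTHFD1, GART and ALDH1L2.

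MTR, methionine synthase, spanned 2.78 log2 units. Nalm16 (6.13) and Nalm30 (7.13) were the lowest lines, and the other 11 lines lay between 8.02 and 8.91. In T-ALL the lowest, median and highest values were 8.02, 8.27 and 8.84, against 6.13, 8.42 and 8.91 in BCP-ALL. The mean of the pair (6.63) was lower than that of the other 4 BCP-ALL lines (8.59) by 3.90-fold. A second MTR probe set, 226969_at, was likewise lowest in Nalm16 (4.81) and Nalm30 (5.39), and it correlated with the first at r = 0.943 over the 13 lines.

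MTHFD1, the cytosolic trifunctional enzyme that loads formate onto tetrahydrofolate, was highest in the same pair, at 11.09 in Nalm16 and 10.85 in Nalm30, against 9.74 to 10.51 in the other lines. The pair exceeded the other 4 BCP-ALL lines (9.74 to 9.95) by 2.14-fold. GART, which carries out 3 steps of purine synthesis, one of which needs formyl folate, was also highest there, at 10.31 and 10.18 against 8.72 to 9.97 in the other lines. Among its 5 probe sets above the floor, 212379_at (r = 0.943 with the one used) and 230766_at (r = 0.668) were likewise higher in Nalm30 than in any other line, but in 230766_at Nalm16 (7.48) was below Molt4 (7.83). In 217445_s_at the values were 7.66 in Nalm16 and 7.51 in Nalm30, below 8.02 in CCRF-CEM, and 210005_at (r = -0.21) gave 8.12 in Nalm16 and 8.38 in Nalm30, below 9.35 in Nalm6. GART is therefore read differently by its probe sets.

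The pair lay beyond the other 11 lines in 4 of the 8 members that passed the filter, MTR below them and MTHFD1, GART and ALDH1L2 above them. ALDH1L2 passed the filter only through 697 and this pair, so its place in that count was favored by the filter. The pair lay beyond the other 11 lines in 32.5% of the 12560 genes kept, 20.5% below and 12% above. Such a position was thus common among genes outside the folate cycle. The mean of 14 proliferation genes was 9.38 in Nalm16 and 9.81 in Nalm30, against 10.13 to 10.57 in the other lines. The genes of that list did not move together. CDK1 was 7.0 in Nalm16 and 8.28 in Nalm30, against 10.35 to 10.89 in the other lines. MCM2 was highest in the pair (11.32 and 11.22, at most 11.11 elsewhere), and MCM7 (10.97 and 10.98) lay within the 10.55 to 11.54 of the other lines. Over 13 lines the mean of the 14 genes correlated with MTR at r = 0.863, with MTHFD1 at -0.619 and with GART at -0.499. Over the 11 lines without the pair these r were -0.122, 0.625 and 0.624, each with the opposite sign. The part of proliferation in the levels of the enzymes was not tested further.

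**Figure D2:**
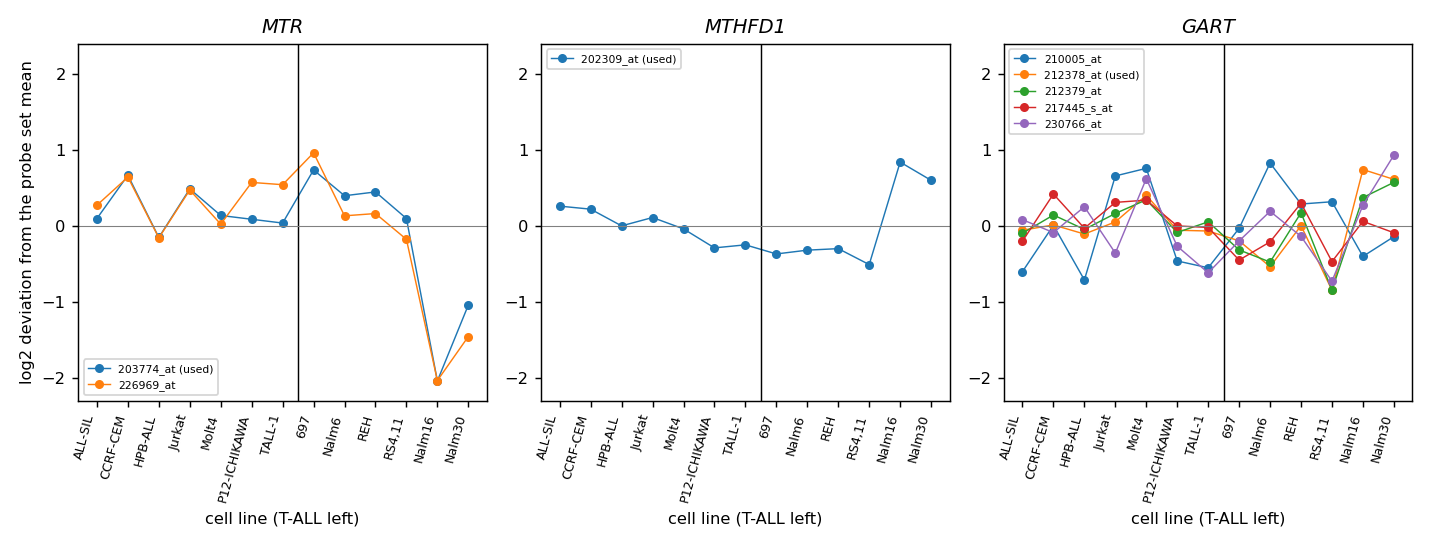
Deviation in log2 units from the probe set's own mean, for every probe set of MTR, MTHFD1 and GART with a mean of at least 5, over the 13 lines (T-ALL left of the vertical line, BCP-ALL right). Both MTR probe sets are lowest in Nalm16 and Nalm30, the MTHFD1 probe set is highest there at 11.09 and 10.85, and the GART probe sets do not move together.

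The promoters of these 3 genes are shown because MTHFD1 and GART ran together over the lines (r = 0.823 over 13 lines, 0.595 without Nalm16 and Nalm30), while MTR ran against MTHFD1 (r = -0.751) with the pair in and not without it (r = 0.02). They are RefSeq sequences of GRCh38.p14, 250 bases before to 50 after the first listed start, read 5′ to 3′ on the gene's strand, and the capitals mark CCAAT or its reverse complement ATTGG. MTR is at chr1:236795031-236795330 (plus strand), MTHFD1 at chr14:64388103-64388402 (plus strand) and GART at chr21:33542843-33543142 (minus strand).
MTR: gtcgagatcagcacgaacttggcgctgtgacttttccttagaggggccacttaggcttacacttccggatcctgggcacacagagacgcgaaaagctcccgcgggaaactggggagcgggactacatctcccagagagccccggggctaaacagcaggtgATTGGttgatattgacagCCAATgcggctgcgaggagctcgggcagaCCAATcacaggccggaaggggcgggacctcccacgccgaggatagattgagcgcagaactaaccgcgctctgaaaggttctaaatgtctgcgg
MTHFD1: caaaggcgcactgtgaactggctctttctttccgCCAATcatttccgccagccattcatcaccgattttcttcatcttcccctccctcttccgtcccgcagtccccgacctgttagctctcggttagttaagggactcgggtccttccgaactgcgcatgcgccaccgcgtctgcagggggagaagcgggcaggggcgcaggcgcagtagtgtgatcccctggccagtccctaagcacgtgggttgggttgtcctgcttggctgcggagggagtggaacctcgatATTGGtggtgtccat
GART: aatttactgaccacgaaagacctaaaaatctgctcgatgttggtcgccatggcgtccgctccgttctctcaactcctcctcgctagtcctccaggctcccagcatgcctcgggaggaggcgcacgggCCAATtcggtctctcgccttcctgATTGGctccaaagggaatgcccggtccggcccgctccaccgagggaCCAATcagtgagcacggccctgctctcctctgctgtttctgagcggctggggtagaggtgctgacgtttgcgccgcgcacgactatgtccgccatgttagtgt
MTR and GART each held 3 matches to CCAAT and MTHFD1 held 2, and 34.6% of the 35116 promoters in the table held at least 1. The E2F-type letters TTTNNCGC were in the promoter of MTR and in 6.89% of all. The E-box CACGTG was in the promoter of MTHFD1 and in 7.26% of all, and the GC box GGGCGG was in that of MTR and in 45% of all. The letters TGATGNAA, found in 3.62% of all promoters, were in none of these 3. These matches depend on the start shown. Another listed GART promoter, at chr21:33542068-33542367, held 1 match to CCAAT, 3 to the GC box and 1 to the E2F-type letters. Both strands were searched, and a match is only a match of letters. Of the 10 members, 8 had a promoter in the table.

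TYMS, which makes thymidylate and is a direct target of MTX polyglutamates, was steady on the probe set used. Its lowest, median and highest values were 11.98, 12.18 and 12.62 in T-ALL, with Jurkat highest, and 11.80, 12.22 and 12.39 in BCP-ALL, with 697 lowest. Probe set 1554696_s_at spanned 1.07 log2 units (r = 0.812 with the one used). The weaker 217684_at spanned 1.53 (r = -0.274), with its lowest values in Nalm16 (4.68) and Nalm30 (4.66). ATIC, which adds the last carbon of the purine ring and closes it, gave 10.20, 10.75 and 10.95 in T-ALL against 10.38, 10.54 and 10.88 in BCP-ALL. P12-ICHIKAWA (10.20) and TALL-1 (10.26) were the lowest lines for ATIC. TYMS and ATIC tended to be high in the same lines (r = 0.528 over 13 lines, 0.67 over the 11 without Nalm16 and Nalm30).

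SHMT2, the mitochondrial serine hydroxymethyltransferase, had 9.94, 10.56 and 10.68 in T-ALL as its lowest, median and highest values, against 9.82, 10.45 and 10.68 in BCP-ALL. MTHFD2, the mitochondrial methylene-tetrahydrofolate dehydrogenase that many tumors express, had 10.54, 10.98 and 11.86 in T-ALL against 10.43, 10.94 and 11.61 in BCP-ALL. CCRF-CEM (11.86) and Nalm6 (11.61) were its highest lines, and Nalm30 (10.43) and Molt4 (10.54) its lowest. The second MTHFD2 probe set, 234976_x_at, spanned 3.14 log2 units, with 8.47 in CCRF-CEM at the top and 5.33 in Nalm30 at the bottom (r = 0.848 with the one used), so the size of the range depended on the probe set.

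The other 3 members were at or near the floor on the probe set used. SHMT1 ran from 4.35 to 5.00 and MTHFD1L from 4.19 to 4.88, which left neither above the median of its array in any line. Probe sets annotated to SHMT1 together with MIR6778 gave signal, 7.83 to 9.16 for 224954_at, and one annotated to MTHFD1L together with 2 LOC symbols, 225520_at, gave 8.58 to 10.08. These were looked at after the values were seen, they cannot be assigned to 1 gene, and they were not tested. For 224954_at the mean was 8.71 ± 0.26 in T-ALL and 8.57 ± 0.53 in BCP-ALL (SD, n = 7 and 6), and for 225520_at it was 9.14 ± 0.35 and 9.34 ± 0.47. ALDH1L2, which releases formyl carbon as carbon dioxide in mitochondria, ran from 4.46 to 5.80, with 5 lines within 1 unit of the floor. It passed the filter through 3 BCP-ALL lines alone, 697, Nalm16 and Nalm30.

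The first comparison asked whether the lineages differ. None of the 8 members tested passed (limma, adjusted p below 0.05 over all genes), where 958 of 12560 genes did (7.63%), and 1 of the 8 had an unadjusted p below 0.05, as had 25.3% of all genes. MTR averaged 8.37 ± 0.28 in T-ALL and 7.94 ± 1.08 in BCP-ALL (SD, n = 7 and 6). Its difference was 0.43 (SE 0.394, 95% interval -0.42 to 1.28, limma adjusted p = 0.51), and without Nalm16 and Nalm30 it was -0.224, the opposite sign. MTHFD1 differed by 0.01 (interval -0.49 to 0.51), GART by 0.06 (-0.46 to 0.59) and TYMS by 0.05 (-0.27 to 0.38). ATIC differed by 0.02 (-0.34 to 0.38), SHMT2 by 0.03 (-0.37 to 0.43) and MTHFD2 by 0.13 (-0.36 to 0.62). The near-zero differences of MTHFD1 and GART average over the high pair. Without Nalm16 and Nalm30 they were 0.377 for MTHFD1 (limma adjusted p = 0.168), with 9.96 to 10.51 in T-ALL and 9.74 to 9.95 in the other 4 BCP-ALL lines, and 0.421 for GART (limma adjusted p = 0.215). Over all 13 lines the interval bound farthest from 0 was 0.62 for these 6 members, which does not show equal levels.

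ALDH1L2 gave the smallest p of the 8. It averaged 4.80 ± 0.24 in T-ALL and 5.35 ± 0.32 in BCP-ALL (SD, n = 7 and 6), a difference of -0.55 (SE 0.171, limma adjusted p = 0.0676, two-sided exact permutation p = 0.00466 over 1716 splits). The groups overlapped, 4.46 to 5.11 in T-ALL and 5.03 to 5.80 in BCP-ALL. All T-ALL lines were below the median of their arrays and the probe set entered the test only through BCP-ALL lines where it was higher, so the filter favored this direction.

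**Figure D3:**
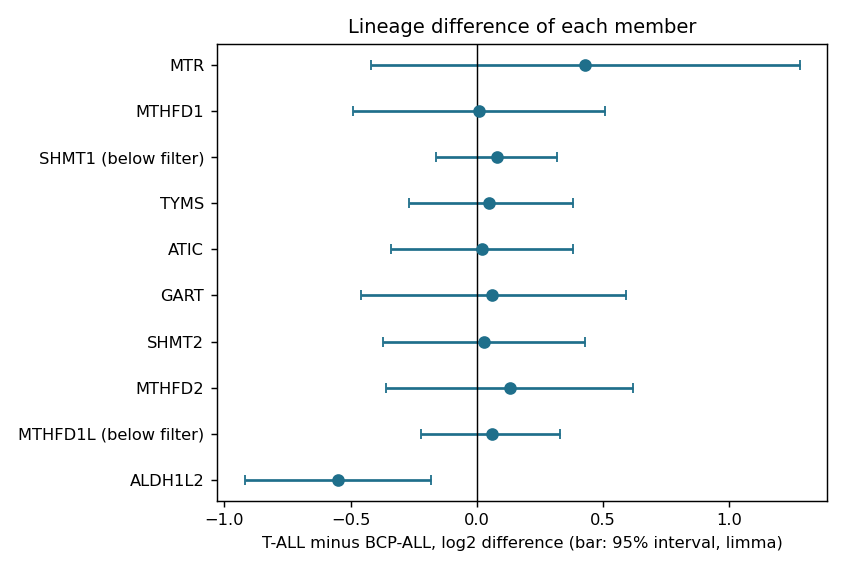
T-ALL minus BCP-ALL difference in log2 units for each enzyme, with the 95% interval of the limma fit over 7 and 6 lines. The intervals of all members but ALDH1L2 (-0.92 to -0.18) include 0, and SHMT1 and MTHFD1L, which did not pass the filter, come from the fit without it.

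The arms were compared by deviations from each probe set's own mean. For the cytosolic arm these were averaged over MTR, MTHFD1, TYMS, ATIC and GART, and for the mitochondrial arm over SHMT2 and MTHFD2. These were the members above the floor on the probe set used. The cytosolic mean was 0.05 ± 0.19 in T-ALL and -0.06 ± 0.11 in BCP-ALL, and the mitochondrial mean was 0.03 ± 0.30 and -0.04 ± 0.19 (SD, n = 7 and 6). The arm means did not run together over the lines (r = 0.0946, n = 13). Neither did SHMT2 and MTHFD2, which make up the mitochondrial mean (r = 0.006). Within the cytosolic mean r ran from -0.751 (MTR and MTHFD1) to 0.823 (MTHFD1 and GART). The r between the means therefore cannot show whether the arms vary apart. The mitochondrial arm was highest in CCRF-CEM (0.55) and lowest in Molt4 (-0.48), and Molt4 also had the lowest mitochondrial minus cytosolic value (-0.58), with Nalm6 (0.37) the highest. The near-zero cytosolic means of Nalm16 (-0.09) and Nalm30 (0.10) averaged a low MTR with a high MTHFD1 and GART, and without MTR they were 0.39 and 0.38, the highest of the 13. Among the 28 pairs of members that passed the filter the median r was 0.026, beside 0.016 over all pairs of genes kept, and 15 were positive.

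**Figure D4:**
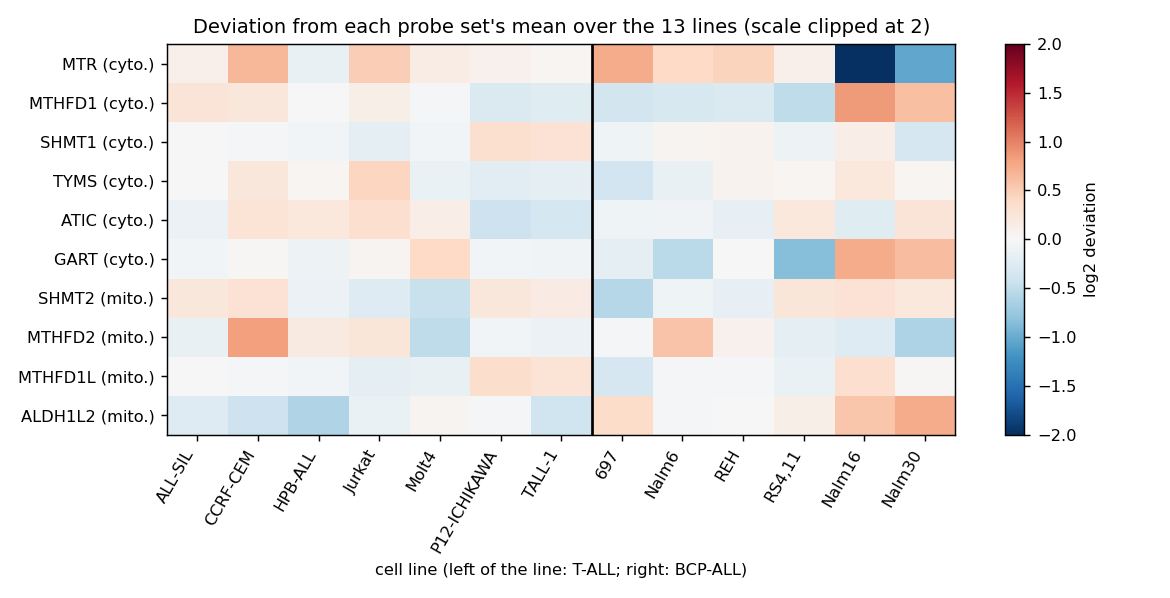
Deviation of each enzyme from its mean over the 13 lines, in log2 units (red above, blue below), with the 7 T-ALL lines left of the black line and the 6 BCP-ALL lines right of it. Rows are marked cyto. or mito. by arm. Nalm16 and Nalm30 are the columns with blue MTR and red MTHFD1 and GART.

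On the probe set used for each gene, MTR was the only member spanning at least 2 log2 units. MTHFD2 spanned 3.14 on its second probe set, 234976_x_at. The genes most like MTR were IGF2BP3, an RNA-binding protein (r = 0.977), ACBD3 (0.973) and the phosphatase ACP1 (0.972), all over 13 lines. Next came GCSH, the carrier protein of the glycine cleavage system (0.971), and NPM1, nucleophosmin (0.97). Without Nalm16 and Nalm30 the same r were 0.814, 0.774, 0.879, 0.78 and 0.715 over 11 lines. The 5 genes were picked by their r with MTR over lines that include the pair, so low values there follow largely from the choice. All 5 were lowest in the pair, a position shared by 20.5% of the 12560 genes kept. NPM1, for example, was 10.96 in Nalm16 and 11.58 in Nalm30 against 12.12 to 12.55 in the other lines.

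Related genes were read from lists. Of 12 tested other folate enzymes and carriers, 1 was lower in T-ALL and 0 were higher (7.63% of all genes passed in either direction), with a median difference of 0.225 beside 0.0337 over all genes. That gene was GLDC, the glycine decarboxylase that feeds glycine carbon to mitochondrial folate, at 5.07 ± 0.82 in T-ALL and 7.84 ± 2.05 in BCP-ALL (SD, n = 7 and 6), a difference of -2.77 (SE 0.765, limma adjusted p = 0.0425). It was 4.07 to 5.95 in T-ALL and 4.81 to 9.61 in BCP-ALL. Without Nalm16 and Nalm30 the difference was -2.24 and the call was lost (limma adjusted p = 0.186). Over 22 alternatives, 8 of which passed, the difference ran from -3.38 to -1.93 and the adjusted p from 0.00622 to 0.186. None of 10 purine synthesis genes, 9 genes of thymidylate and deoxynucleotide supply, 4 of the methionine cycle, 15 of serine synthesis and ATF4 targets or 14 of proliferation passed the lineage test. At an unadjusted p below 0.05 the counts in those lists were 2, 2, 0, 0 and 2, each a smaller share than the 25.3% of all genes.

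The next comparison set the enzymes against the IC50 of MTX after 48 or 96 h, the concentration at which the viability signal of a line is 50% of that of its untreated control, so that slower growth counts as well as death. The IC50 of each line was taken from the text of the study's supplement and used only as a covariate. For the 48 h IC50, 68 of 12560 genes passed (0.541%), and 0 of the 8 members did (limma), while 2 of the 8 had an unadjusted p below 0.05, beside 26.3% of all genes. The slope of MTR was -0.175 log2 units per 10 nM of IC50 (SE 0.0432, limma adjusted p = 0.0588), and Pearson's r was -0.765 over 13 lines (permutation p = 0.00148). The slope of MTHFD1 was 0.0906 per 10 nM (SE 0.0267, limma adjusted p = 0.0728, r = 0.747, permutation p = 0.00399).

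Both relations rested on Nalm16 and Nalm30, which were also the 2 lines farthest from the median IC50 at 48 h. Without them r was -0.529 for MTR (permutation p = 0.0946, n = 11) and 0.423 for MTHFD1 (permutation p = 0.199, n = 11). By rank over 13 lines, Spearman's rho was -0.516 for MTR (permutation p = 0.0732) and 0.5 for MTHFD1 (permutation p = 0.0847). Within T-ALL r was -0.454 for MTR (exact p = 0.297, n = 7) and 0.462 for MTHFD1 (exact p = 0.283, n = 7). The arrays of P12-ICHIKAWA and TALL-1 were nearly alike (r = 0.993), so n = 7 may overstate the independent lines. Without TALL-1 the T-ALL values were -0.591 for MTR (exact p = 0.201) and 0.353 for MTHFD1 (exact p = 0.499). Within BCP-ALL, which holds the pair, r was -0.919 for MTR (exact p = 0.0319, n = 6) and 0.912 for MTHFD1 (exact p = 0.0667, n = 6). The exact p there was smaller for ALDH1L2 (r = 0.885, exact p = 0.0194) and MTHFD2 (r = -0.803, exact p = 0.025). For the remaining members the exact p within BCP-ALL ran from 0.1 (GART) to 0.539 (ATIC). The adjusted p of MTR ran from 0.0114 to 0.868 over 24 alternatives, 4 of which passed, among them the other way of choosing a probe set (0.0451), and that of MTHFD1 from 0.0185 to 0.921.

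None of the direct targets passed against the 48 h IC50. TYMS gave r = 0.24 (permutation p = 0.428, rho = 0.242), ATIC r = 0.261 (permutation p = 0.385, rho = 0.236) and GART r = 0.486 (permutation p = 0.0945, rho = 0.198), and the r of GART was -0.0654 without the pair. SHMT2 gave r = 0.391 (permutation p = 0.184, rho = 0.423), MTHFD2 r = -0.41 (permutation p = 0.161, rho = -0.478) and ALDH1L2 r = 0.325 (permutation p = 0.279, rho = 0.286), which was -0.512 without the pair. Below the filter, SHMT1 gave r = -0.392 and MTHFD1L r = 0.178. In all, 20 relations were computed, 10 members at 2 times. Each was also computed by rank, without certain lines and within each lineage, and the permutation and exact p-values were not adjusted for their number.

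For the 96 h IC50 no member passed, and no gene did (limma, 0 of 12560, 0%), while 364 genes (2.9%) and none of the 8 members had an unadjusted p below 0.05. TYMS gave the largest r of the 10 over 13 lines, 0.489 (permutation p = 0.0921, rho = 0.33), and it was 0.257 without HPB-ALL and Jurkat, the lines farthest from the median at 96 h. ATIC gave r = 0.422 (permutation p = 0.151, rho = 0.489), which was 0.0825 without those 2 lines and 0.658 without Nalm16 and Nalm30 (permutation p = 0.0229, n = 11). MTR gave r = -0.314 (permutation p = 0.295, rho = -0.148) and MTHFD1 r = 0.309 (permutation p = 0.307, rho = 0.181), and the other 6 members lay between -0.278 and 0.232. Without HPB-ALL and Jurkat the r of MTR was -0.657 (permutation p = 0.0517, n = 11), that of MTHFD1 0.434 and that of ALDH1L2 0.552, against -0.0601 over 13 lines.

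**Figure D5:**
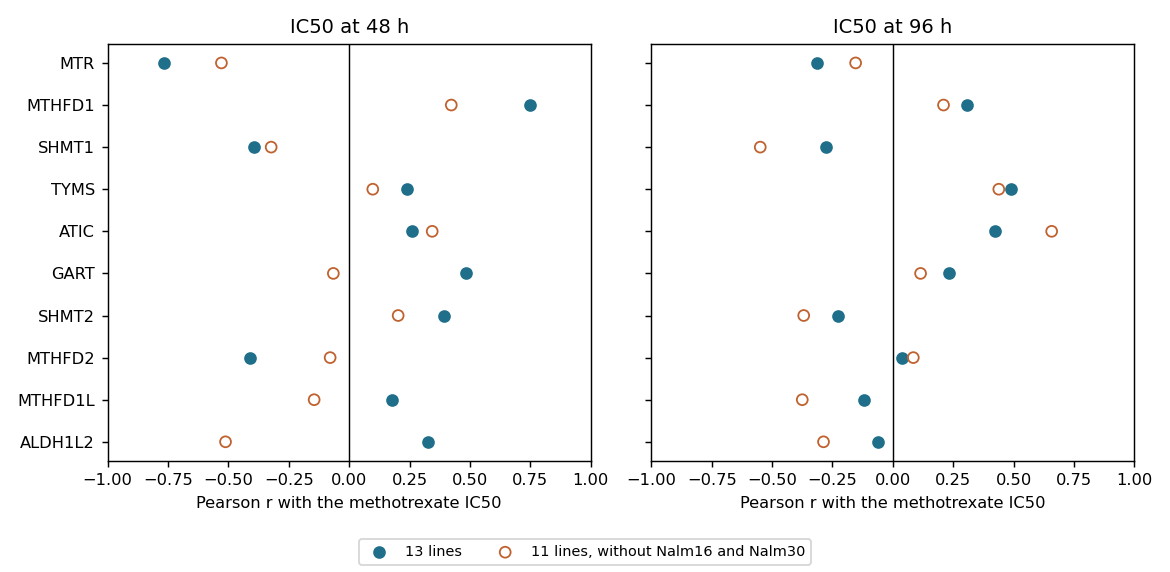
Pearson r of each enzyme with the MTX IC50 at 48 h (left) and 96 h (right), over 13 lines (filled) and over the 11 lines without Nalm16 and Nalm30 (open). At 48 h the open points are at -0.529 for MTR and 0.423 for MTHFD1.

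The difference of the slopes between the lineages was tested for each member. At 48 h, 1375 of 12560 genes passed (10.9%) and 0 of the 8 members, and at 96 h 1 gene passed (0.00796%) and 0 members. At an unadjusted p below 0.05 there were 3 of 8 members at 48 h (MTR, ALDH1L2 and GART) beside 26.9% of all genes, and 1 of 8 at 96 h (MTR) beside 23.4%. ALDH1L2 passed the filter only through 697, Nalm16 and Nalm30, all BCP-ALL, so its place in that count was favored by the filter. The difference of GART at 48 h was -0.138 per 10 nM, and 0.252 without Nalm16 and Nalm30, the opposite sign. MTR was the member nearest the threshold, with a T-ALL minus BCP-ALL difference of 0.213 per 10 nM at 48 h (SE 0.067, limma adjusted p = 0.0637) and 1.03 at 96 h (SE 0.347, limma adjusted p = 0.132). Without Nalm16 and Nalm30 these were 0.119 and 0.0594.

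Among the related lists at 48 h, none of the 12 other folate enzymes and carriers passed, although 6 had an unadjusted p below 0.05, beside 26.3% of all genes. The slopes of those 6 were negative, as were 2334 of the 3308 over all genes, and the median slope of the 12 was -0.103 beside -0.0114. Of the 6, MTRR, GCSH, DHFR2, MTHFD2L and DLD were lower in Nalm16 and Nalm30 than in any other line. GCSH, for example, was 7.28 and 9.03 against 10.03 to 11.19, and SLC25A32 was 6.88 and 7.74 against 7.65 to 9.92. Nalm16 and Nalm30 both lay below the other 11 lines in 20.5% of the 12560 genes kept. The 6 were picked by their relation to an IC50 for which this pair was farthest from the median. Low values in the pair follow partly from that choice. Of 15 genes of serine synthesis and ATF4 targets, 1 passed, PSAT1, a serine synthesis enzyme named here after its values were seen. Its slope was -0.895 per 10 nM (SE 0.0995, limma adjusted p = 0.00131) and it was at the floor in Nalm16 (4.07) and Nalm30 (4.11), while the other lines ran from 4.02 to 12.01. Without the pair its slope was -0.967 (limma adjusted p = 0.0749). No gene of the purine, thymidylate, methionine cycle or proliferation lists passed at 48 h, where 2 of 10, 3 of 9, 1 of 4 and 6 of 14 had an unadjusted p below 0.05, beside the 26.3% of all genes.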

How the data were processed

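The authors hybridized RNA of each line to HG-U133 Plus 2.0 arrays and deposited log2 values from iterPLIER+16, run in Affymetrix Expression Console (the sources used here do not state its version). How arrays were scaled is not stated, and array medians ran from 5.05 to 5.37. The labels and the methods name different RNA kits. Of 42450 probe sets, 38125 had 1 gene symbol, 1742 had several and were not assigned, and 2583 had none here. The probe set of highest mean stood for its gene. Lineage, IC50 slope and interaction were fitted with limma 3.58.1 in R 4.3.3 over 12560 genes with Benjamini-Hochberg adjustment at 0.05, and tested on simulated data. Correlations had two-sided permutation p-values (100000 resamples, smallest possible 1e-05) or, within a lineage, exact ones. IC50 values came from a supplementary text read from a PDF. Doubling times were not analysed here. The number of lines limits precision, and p-values measure the spread between lines only. All 10 members are named, with list members that passed the lineage test and the 5 genes most like a member spanning at least 2 log2 units. Alternatives covered normalization, filter, probe set, offset, variance model, IC50 scale, lineage, related lines and each line left out. Members and lists were chosen with earlier results of these data known. Other steps ran in Python 3.11.15 (scipy 1.17.1, pandas 2.3.3, numpy 2.4.6), with matplotlib 3.10.9 for plots.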

Additional observations from a re-analysis of the deposited data

Results flagged for a closer look

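Of 20 groups examined for a line apart from the rest (10 members in 2 lineages), 1 had one: GART in T-ALL was 9.97 in Molt4, with 9.62 as the next highest of the 7 lines, a gap of 0.684 of the range. Chance alone flags about 1 in 20 groups.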

How the results depend on the processing

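No member passed the lineage test or the 96 h IC50 test under any alternative run. At 48 h the members past the threshold were 1 with the probe set of highest variance and 1 with the mean of all probe sets, and 0 to 2 with a line left out, 2 of them without HPB-ALL. The difference of slopes at 48 h was past it for 1 member with quantile normalization and 1 with log2 of the IC50, and for 0 to 1 with a line left out, at 48 h and at 96 h. Over all genes, the lineage count of 958 became 609 with P12-ICHIKAWA and TALL-1 as 1 sample and 608 to 1215 with a line left out. The 48 h count of 68 became 222 with quantile normalization, 410 with the highest-variance probe set, 217 with the mean of probe sets, 139 with log2(signal + 64), 114 with a trend and robust variance model, 21 with P12-ICHIKAWA and TALL-1 as 1 sample, 3 without Nalm16 and Nalm30, 5 with log2 of the IC50, 241 with lineage as a covariate, and 7 to 2466 with a line left out, the highest without HPB-ALL and the lowest without Nalm30. The 96 h count was 0 with any line left out. The slope difference count of 1375 at 48 h became 28 without Nalm16 and Nalm30 and 247 to 1501 with a line left out, and that of 1 at 96 h became 12 without the filter, 3 without Nalm16 and Nalm30, 0 with log2 of the IC50, and 1 to 2163 with a line left out, the highest without Nalm30. The causes were not tested. No paired analysis was possible because the labels give no replicate numbers shared between lineages. ALDH1L2 fell below the filter without Nalm16 and Nalm30, so the limma fits gave it no value there.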
